A study of Mus musculus with 17 samples.

Results

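The genes described are 33 genes of cholesterol and fatty acid synthesis and of the SREBP system that controls them, chosen by symbol and found as 33 of the 25899 gene symbols in the count table. They fall into the mevalonate steps (7 genes), the sterol steps from squalene to cholesterol (11), the SREBP machinery with a sterol carrier (6) and fatty acid synthesis (9). New RNA, labelled for 15 min with 5 mM ethynyl uridine and captured by click chemistry, was measured in 17 libraries of E14tg2a mouse embryonic stem cells (129SV background, 3 clones called a, b and c). In every library both Erk1 and Erk2 were knocked out, ERK function came from a FLAG-ERK2 Q103A cDNA, and a cRAF-ErT2 cassette, a RAF kinase fused to a modified oestrogen receptor domain that 4-hydroxytamoxifen (4OHT) binds, was stably expressed. Because every library carries the knockout, no comparison here tests it. The groups were DMSO (n = 2, clones b and c), 4OHT at 250 nM for 2 h (n = 3), a MEK inhibitor at 1 µM (MEKi, n = 3), MEKi with 4OHT (n = 3), PP1 at 2 µM, which was used to block the Q103A kinase (n = 3), and PP1 with 4OHT (n = 3). The labels do not state how long an inhibitor was given without 4OHT. An unequal time of inhibitor between groups with and without 4OHT therefore cannot be told apart from an effect of 4OHT. All cells had spent 24 h in serum medium with LIF and 250 nM PD173074, an FGF receptor inhibitor. The DMSO group is thus itself a state of blocked FGF receptors. The comparisons ask how 4OHT, given to activate RAF, changed the transcription of these genes. They also ask how this differed in the presence of MEKi or PP1. Every library carries the RAF cassette, so an effect through RAF and another effect of 4OHT cannot be told apart.

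Cells make cholesterol from acetyl-CoA through mevalonate, isopentenyl units and squalene, which is closed into lanosterol and trimmed to cholesterol. SREBP2, encoded by Srebf2, and SREBP1, encoded by Srebf1, are membrane-bound transcription factors that SCAP escorts to the Golgi for cleavage when sterols are low, while INSIG proteins hold the complex in the endoplasmic reticulum when sterols are high. SREBP2 is known mainly for the cholesterol genes and SREBP1c for the fatty acid genes, and Insig1 and Srebf2 are themselves SREBP targets.

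Levels are in CPM, counts scaled to the size of the library after TMM normalization, and library totals ran from 5239690 to 11093390 counts, at which 3 counts correspond to 0.247 to 0.766 CPM. A set of 14 loci with very high counts held between 9.38% (4OHT, clone a) and 42% (PP1, clone a) of a library, with 28.9% in 4OHT clone b and 32.6% in MEKi clone b. Pearson's r of log2 CPM across genes within a group was 0.976 to 0.991. Of the pluripotency markers 8 of 8 exceeded 1 CPM in every library, and of the fibroblast markers 0 of 8 did (summed 1.99 to 8.08 CPM). The fibroblast medians ran from 0 for Lum to 3.69 CPM for Pdgfrb, which ranged from 0.938 to 5.56 CPM. The summed pluripotency markers were 3569 to 3856 CPM in DMSO and 3075 to 3516 CPM with 4OHT. For neuroectoderm (3 of 4 above 1 CPM in every library) the sums were 14.8 to 16.2 and 26.2 to 35.3 CPM, and for primitive endoderm (3 of 7) 17.3 to 17.5 and 9.26 to 15.4 CPM. Trophoblast markers (3 of 5) summed to 19 to 24.2 CPM in PP1 with 4OHT and 33.4 to 39.2 CPM in PP1. Markers weighed unequally in these sums. The highest neuroectoderm levels in any library were 27.7 CPM for Nes, 12.4 for Pax6, 4.59 for Sox1 and 0.766 for Zic1. Tfap2c had the highest trophoblast median over all libraries, 23.5 CPM, and Gata3 the next, 8.67 CPM. The part of these markers in the results was not tested, and in bulk RNA fewer cells of a type and less RNA per cell cannot be told apart. Dusp6 and Etv4, genes that ERK signalling switches on, rose with 4OHT alone (log2 fold changes ± SE 1.85 ± 0.11 and 1.70 ± 0.12) and with PP1 present (1.66 ± 0.10 and 1.85 ± 0.12). When MEKi was present they fell with 4OHT (-2.12 ± 0.14 and -2.30 ± 0.16). Fos, an immediate early gene, had 4.09 ± 0.20 with 4OHT alone, -0.10 ± 0.36 with MEKi (not called, adjusted p = 0.9) and 2.00 ± 0.23 with PP1.

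With 4OHT alone, new RNA of 17 of the 32 testable members rose and that of 5 fell, where 25.7% of all 14907 genes tested rose and 26.3% fell. In the presence of MEKi, 17 rose and 1 fell with 4OHT, against 7.65% and 7.03% of all genes. With PP1 present, 21 rose and 0 fell, against 18.4% and 12.8% of all genes. The median log2 fold change of the members was 0.56 without an inhibitor, 0.52 with MEKi and 0.59 with PP1, beside -0.02, 0.00 and 0.00 over all genes. Scaled by library totals, 9 members rose and 6 fell with 4OHT alone, and without the 14 high-count loci in those totals 13 rose and 6 fell. A gene was called when edgeR's quasi-likelihood test gave a Benjamini-Hochberg adjusted p under 0.05 over all genes tested. Mvd, which decarboxylates mevalonate diphosphate, had 0 counts in all 17 libraries and could not be tested. Gm20388 overlaps Mvd on the opposite strand, and the strand setting of the counting is not given. The 0 counts therefore do not show that Mvd was silent. For PP1 with 4OHT against PP1, 0 members were called lower under any scaling, filter or test tried, DESeq2 and limma-voom included, and 0 had a lower value at an unadjusted p under 0.05. The plot of the effect of 4OHT on each gene shows the positive shift in all 3 conditions.

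**Figure D1:**
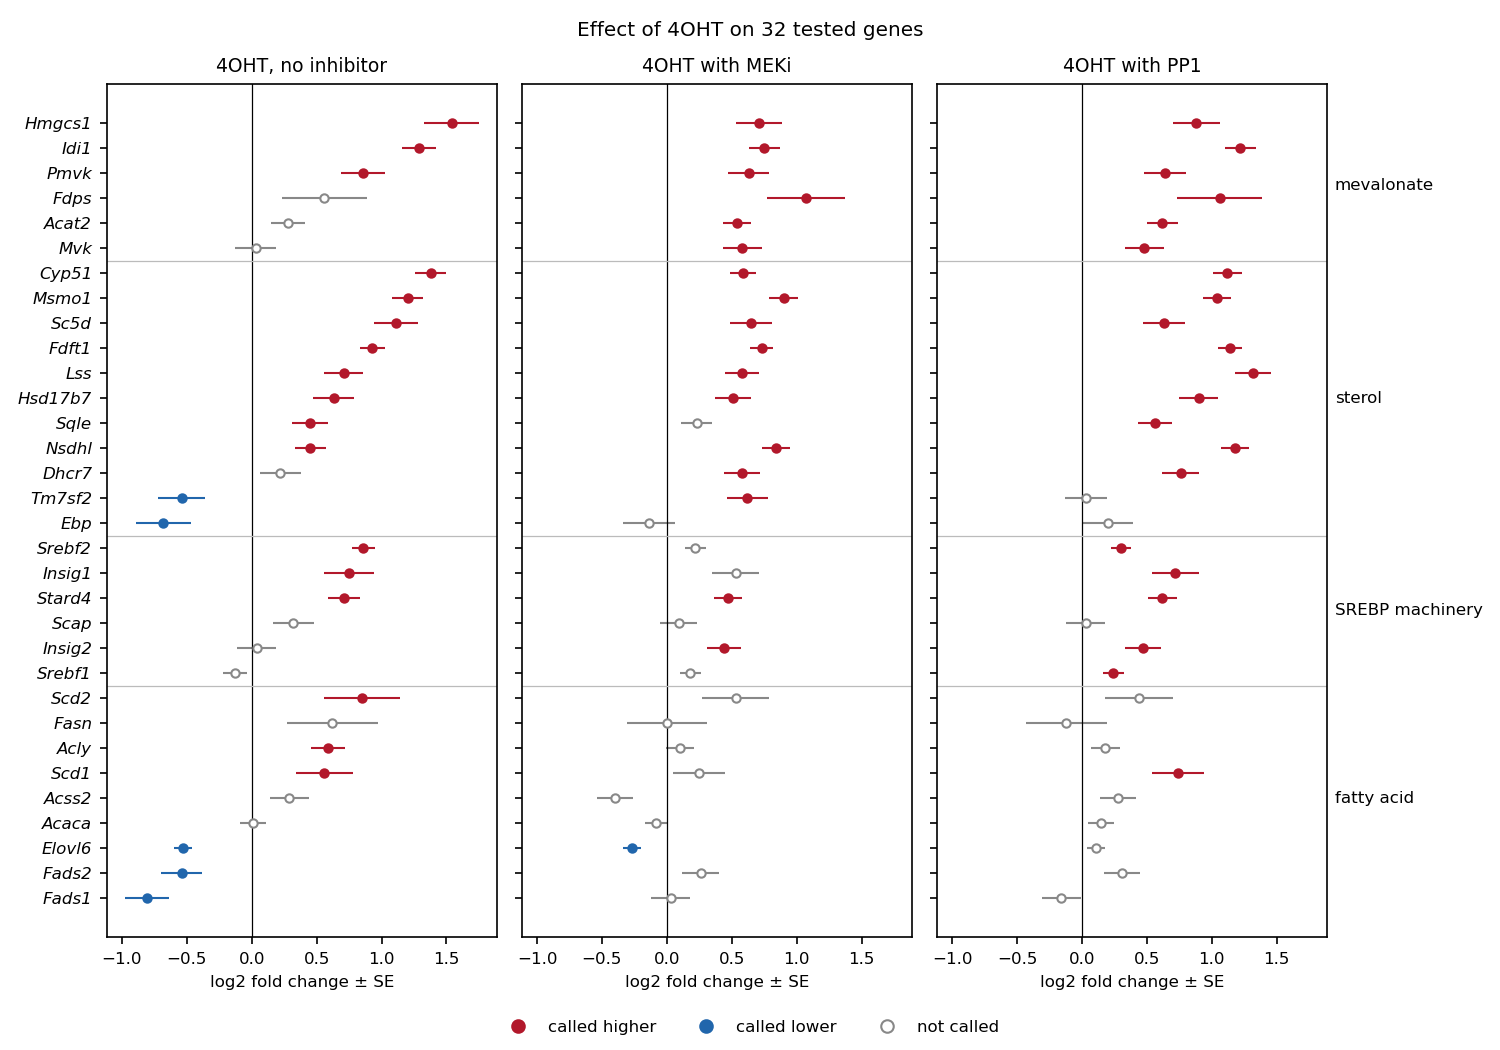
Log2 fold change ± SE of each of the 32 tested genes with 4OHT against its own control, without inhibitor, with MEKi and with PP1, grouped by branch (filled symbols passed an adjusted p of 0.05). The mevalonate and sterol genes lie mostly to the right of 0 in each panel, with 15 of 17 called higher with MEKi and with PP1, while the fatty acid genes lie on both sides.

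The rise lay mainly in the cholesterol branch, the mevalonate and sterol genes together. Of its 17 tested members 11 rose and 2 fell with 4OHT alone, 15 rose and 0 fell with MEKi, and 15 rose and 0 fell with PP1, with medians of 0.63, 0.62 and 0.88. Of the 9 fatty acid members 3 rose and 3 fell with 4OHT alone, 0 rose and 1 fell with MEKi, and 1 rose and 0 fell with PP1. Their medians were 0.29, 0.03 and 0.18. Branch counts are to be read against the shares of all genes. These were 25.7% higher and 26.3% lower with 4OHT alone, 7.65% and 7.03% with MEKi, and 18.4% and 12.8% with PP1. For so few genes the fatty acid counts lay near these shares. The fatty acid split depended on the scaling, with 0 higher and 3 lower under library totals with 4OHT alone, 1 and 0 with MEKi and 2 and 0 with PP1. Without DMSO clone b, 4OHT clone b or 4OHT clone c, 1 fatty acid gene was higher and 3 were lower with 4OHT alone. The 6 members of the SREBP machinery had 3, 2 and 5 that rose and 0 that fell, with medians of 0.52, 0.33 and 0.38. The count of 5 with PP1 was 3 without PP1 with 4OHT clone a, clone b or the 3 libraries richest in high-count loci, and the count of 2 with MEKi was 1 without MEKi clone a or MEKi with 4OHT clone a or c. With the replicate block the machinery had 4, 4 and 5 that rose. The difference between branches was not tested and is given as counts. The counts of 15 with MEKi and with PP1 were the same under every scaling, filter and test tried, apart from a minimum fold. With 4OHT alone the cholesterol counts were 7 higher and 2 lower under library totals. Without MEKi clone a, or without MEKi with 4OHT clone c, 9 genes were called with MEKi, and the PP1 count ranged from 13 to 15 when single libraries were left out. Relative to library totals, which moved the median of all genes by 4OHT to -0.32, 0.17 and 0.12 in the 3 conditions, the cholesterol branch had medians of 0.32, 0.79 and 1.01, the SREBP machinery 0.21, 0.50 and 0.51, and the fatty acid branch -0.01, 0.21 and 0.33.

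In 11 members the rise passed the test in all 3 conditions, namely Hmgcs1, Pmvk, Idi1, Fdft1, Lss, Cyp51, Msmo1, Nsdhl, Hsd17b7, Sc5d and Stard4, and 2.75% of all genes did so. With both inhibitors 16 members rose, against 4.08% of all genes. Of these, Acat2, Mvk, Fdps, Dhcr7 and Insig2 did not pass the test with 4OHT alone. Across the 32 genes Spearman's rho between log2 fold changes was 0.56 for 4OHT alone and with MEKi, 0.64 for 4OHT alone and with PP1, and 0.79 for MEKi and PP1, where all genes gave 0.09, 0.51 and 0.34. These coefficients describe genes of the same 17 libraries, and genes are not independent replicates.

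Because many of the cholesterol genes rose in all 3 conditions, the members' promoters were read from RefSeq (build GRCm38.p6, 250 bases before to 50 after each start site, 34 windows for 26 of the 33 members). The sterol regulatory element that SREBP binds was searched on both strands as TCACNCCAC, and its shorter core, which every full element holds, as TCACNCCA. The full element was present in 1 of 34 windows (Hmgcs1) and in 1.24% of all 32851 windows, and the core in 3 windows (Hmgcs1, Msmo1 and Srebf2) and in 4.36% of all windows. Of the other motifs, CCAAT, the box bound by NF-Y, was in 22 of 34 windows (21 genes) and in 37.4% of all windows. The Sp1 box GGGCGG was in 26 of 34 windows (22 genes) and in 35.7% of all. The E-box CACGTG was in 6 of 34 windows (5 genes) and in 7.15% of all. The 3 stretches that hold the core are printed 5′ to 3′ on the gene's strand, with the core in capitals. The Hmgcs1 and Srebf2 stretches lie upstream of the start site, at chr13:119690151-119690250 and chr15:82147069-82147168 on the plus strand, and the shorter Msmo1 stretch at chr8:64733737-64733766 on the minus strand. A match of letters is a description and not a bound site. Only these exact letters in these windows were searched, so a window without a match does not show that a gene lacks a site.
Hmgcs1: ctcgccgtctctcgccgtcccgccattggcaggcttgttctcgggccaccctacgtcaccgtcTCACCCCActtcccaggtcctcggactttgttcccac
Srebf2: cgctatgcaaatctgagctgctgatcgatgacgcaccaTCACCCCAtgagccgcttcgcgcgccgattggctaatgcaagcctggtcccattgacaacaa
Msmo1: tctcactattcTCACTCCAtccgcgcagcc

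Among the regulators, new RNA of Srebf2 (chr15:82147181-82205379, plus strand; gene positions are of build mm10, GENCODE M21), the gene of the cholesterol-directed SREBP whose promoter stretch is printed above, rose 1.82-fold with 4OHT alone. Its level was 191 and 184 CPM in DMSO (clones b and c) and 320, 368 and 334 CPM with 4OHT (clones a, b and c, the order used throughout). The 4OHT libraries were all above both DMSO libraries (log2 fold change 0.86 ± 0.09, adjusted p = 1.8e-08 by edgeR, where ± gives the SE). In MEKi it was 175, 209 and 187 CPM, and 209, 217 and 236 CPM when 4OHT was added, values that touch at the edge (log2 fold change 0.22 ± 0.08, adjusted p = 0.064). In PP1 it was 228, 197 and 194 CPM without and 257, 252 and 248 CPM with 4OHT, again with no overlap (log2 fold change 0.30 ± 0.08, adjusted p = 0.0057). The rise was smaller with either inhibitor than without one, by 0.64 and 0.57 on the log2 scale (adjusted p = 9.9e-05 and 8.5e-04). Under library totals these 2 differences were no longer called (-0.16 and -0.12). The rise with PP1 itself was not called without PP1 with 4OHT clone a (0.24, adjusted p = 0.059) or clone b (0.25, adjusted p = 0.055).

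Srebf1 (chr11:60199089-60222581, minus strand), the gene of the SREBP tied to fatty acid synthesis, showed at most a small change. Its level was 87.6 and 93.7 CPM in DMSO and 77.1, 89.1 and 82.3 CPM with 4OHT, and these values overlap (log2 fold change -0.13 ± 0.09, adjusted p = 0.21). MEKi libraries had 78.5, 88.2 and 87.1 CPM without and 90.8, 94.3 and 102 CPM with 4OHT, where the 4OHT libraries were higher but the test was not passed (adjusted p = 0.13). PP1 libraries had 75.3, 84.4 and 84 CPM without and 93.2, 97.8 and 98.6 CPM with 4OHT, a rise in 3 of 3 clones (0.24 ± 0.08, adjusted p = 0.024). That call was lost without PP1 clone a (0.18, adjusted p = 0.095), without PP1 with 4OHT clone b (0.19, adjusted p = 0.11) or clone c (0.23, adjusted p = 0.072), without the 3 libraries richest in high-count loci (0.18, adjusted p = 0.076) and under library totals (0.36, adjusted p = 0.1). Scaled by library totals, Srebf1 was called lower with 4OHT alone (-0.44, adjusted p = 0.041). Rai1 overlaps Srebf1 on the opposite strand, and the strand setting of the counting is not given, so its values are uncertain.

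Insig1 (chr5:28071363-28078662, plus strand), the gene of an INSIG retention protein, was 87.9 and 99.1 CPM in DMSO and 113, 181 and 179 CPM with 4OHT. All 4OHT libraries were above DMSO, clone a least (0.75 ± 0.19, adjusted p = 0.0047). With MEKi it went from 58.2, 65.3 and 72.9 CPM to 88.5, 89.4 and 105 CPM with 4OHT, and with PP1 from 62, 74.2 and 72.4 CPM to 92, 119 and 136 CPM. Neither pair of groups overlapped, and the test was passed with PP1 (0.72 ± 0.18, adjusted p = 0.007) but not with MEKi (0.53 ± 0.18, adjusted p = 0.063). With the clone as a replicate block, Insig1 was called with MEKi as well (0.53, adjusted p = 2.5e-04). Srebf2 with MEKi then also passed (0.22, adjusted p = 0.049). Insig1 was not called with 4OHT alone under library totals (0.43, adjusted p = 0.1), nor with PP1 without the 3 libraries richest in high-count loci (0.63, adjusted p = 0.058).

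Insig2 (chr1:121304353-121332589, minus strand), its paralogue, was 26 and 23.1 CPM in DMSO and 25.7, 25.7 and 24.1 CPM with 4OHT, which overlap (0.04 ± 0.15, adjusted p = 0.85). In MEKi the level was 16.7, 19.8 and 26.5 CPM without and 30.3, 25.9 and 30.2 CPM with 4OHT, a called rise although 1 MEKi library lay inside the range of the other group (0.44 ± 0.13, adjusted p = 0.026). With PP1 it rose from 21.7, 20.4 and 21.2 CPM to 31.5, 29.1 and 26.3 CPM with no overlap (0.47 ± 0.14, adjusted p = 0.011). The call with MEKi was lost without MEKi clone a (0.30, adjusted p = 0.17) or clone b (0.39, adjusted p = 0.076) and without MEKi with 4OHT clone a (0.39, adjusted p = 0.094) or clone c (0.40, adjusted p = 0.088). Fitted to only the groups compared, it was 0.42 (adjusted p = 0.08). The call with PP1 was lost without PP1 with 4OHT clone a (0.37, adjusted p = 0.076).

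Scap (chr9:110333288-110384950, plus strand), the SREBP escort, was 24.3 and 21.4 CPM in DMSO, 23.9, 34.6 and 28 CPM with 4OHT, 19.8, 28.3 and 24.3 CPM with MEKi and 24.5, 26.4 and 25.9 CPM with MEKi and 4OHT. In PP1 it was 32.2, 25 and 21.8 CPM and with PP1 and 4OHT 26.1, 25.9 and 26.7 CPM. These groups overlap, and none of the 3 log2 fold changes by 4OHT, 0.32 ± 0.16, 0.09 ± 0.14 and 0.03 ± 0.15, passed the test. The first did with the replicate block (0.35, adjusted p = 0.049) and without 4OHT clone a (0.47, adjusted p = 0.024). Stard4, a carrier that moves sterols between membranes, rose in all 3 conditions, by log2 fold changes of 0.71 ± 0.12, 0.47 ± 0.11 and 0.62 ± 0.11 (edgeR adjusted p = 1.6e-05, 0.0041 and 1.3e-04).

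Of the mevalonate genes 3 of 6 rose with 4OHT alone (25.7% of all genes) and 6 of 6 with MEKi and with PP1 (7.65% and 18.4% of all genes). Hmgcs1 (chr13:119690379-119708260, plus strand), the cytosolic HMG-CoA synthase, rose 2.92-fold with 4OHT alone, the largest rise among the members there. Its level was 110 and 122 CPM in DMSO and 262, 411 and 345 CPM with 4OHT (1.54 ± 0.21, adjusted p = 2.9e-05). Even the lowest 4OHT library was more than double the higher DMSO library. In the MEKi condition it was 98.3, 126 and 105 CPM without and 178, 170 and 191 CPM with 4OHT, and with PP1 151, 93.7 and 107 CPM without and 185, 220 and 235 CPM with 4OHT. No overlap was seen in either pair (log2 fold changes 0.71 ± 0.18, adjusted p = 0.019, and 0.88 ± 0.18, adjusted p = 0.0028). The call with MEKi was fragile. It was lost without MEKi clone a (0.64, adjusted p = 0.084) or c (0.65, adjusted p = 0.092), and without MEKi with 4OHT clone a (0.71, adjusted p = 0.067), b (0.73, adjusted p = 0.058) or c (0.66, adjusted p = 0.093). A gene of the opposite strand, Gm48342, overlaps Hmgcs1.

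Idi1 (chr13:8885501-8892451, plus strand), the isomerase of isopentenyl diphosphate, was 28.5 and 33.1 CPM in DMSO and 69.1, 78.6 and 77.7 CPM with 4OHT, so that each 4OHT library was more than double either DMSO library (1.29 ± 0.13, adjusted p = 1.5e-08). With MEKi it went from 20.2, 25.4 and 27.3 to 39.8, 38.6 and 44.1 CPM (0.75 ± 0.12, adjusted p = 1.5e-04), and with PP1 from 18.9, 25.6 and 27.7 to 54.2, 58 and 60 CPM (1.22 ± 0.12, adjusted p = 1.2e-07). The groups stood apart in each case, and the rise with PP1 was close in size to that without inhibitor. The difference between those 2 effects was -0.07 ± 0.18 and was not called (adjusted p = 0.81).

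Pmvk (chr3:89454541-89469013, plus strand), phosphomevalonate kinase, was 12.7 and 13.9 CPM in DMSO and 18.5, 26.5 and 27.7 CPM with 4OHT (0.86 ± 0.17, adjusted p = 2.2e-04). It was 12.7, 13.1 and 13.9 CPM with MEKi and 17.1, 19.7 and 24.8 CPM with MEKi and 4OHT (0.63 ± 0.16, adjusted p = 0.0089), and 14.8, 12.6 and 12.9 CPM with PP1 and 18.4, 21.3 and 22.6 CPM with PP1 and 4OHT (0.64 ± 0.16, adjusted p = 0.0042). All 4OHT libraries lay above their controls. Without MEKi with 4OHT clone c the call with MEKi was lost (0.47, adjusted p = 0.082).

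Acat2 (chr17:12942890-12960747, minus strand), the cytosolic thiolase that condenses acetyl-CoA, was 40.2 and 36.9 CPM in DMSO and 39.5, 55.2 and 47.5 CPM with 4OHT, with overlap at clone a (0.28 ± 0.13, adjusted p = 0.063). It went from 34.6, 36 and 38.8 to 52.4, 51.6 and 55.8 CPM with MEKi (0.54 ± 0.11, adjusted p = 0.0019) and from 39.1, 37.7 and 32.3 to 50, 53.5 and 63.4 CPM with PP1 (0.62 ± 0.12, adjusted p = 3.0e-04), both without overlap. With the replicate block the rise without inhibitor passed as well (0.32, adjusted p = 0.024), and it also passed without 4OHT clone a (0.43, adjusted p = 0.0058).

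Mvk, mevalonate kinase, had log2 fold changes by 4OHT of 0.03 ± 0.16 alone (not called), 0.58 ± 0.15 with MEKi and 0.48 ± 0.15 with PP1 (both called higher). Its call with MEKi was lost without MEKi clone a (0.50, adjusted p = 0.053) or c (0.53, adjusted p = 0.058) or MEKi with 4OHT clone c (0.50, adjusted p = 0.064). With PP1 it was lost without PP1 clone b (0.42, adjusted p = 0.081) or c (0.35, adjusted p = 0.12) or PP1 with 4OHT clone a (0.36, adjusted p = 0.13). Fdps, farnesyl diphosphate synthase, held only 446 counts over all libraries, and its values of 0.56 ± 0.33 (not called), 1.07 ± 0.30 and 1.06 ± 0.33 rest on 1.28 to 5.49 CPM per library. Gm43738 overlaps Fdps on the same strand. It passed with 4OHT alone when 4OHT clone a was left out (0.82, adjusted p = 0.048), and lost its call with MEKi without MEKi clone a (0.97, adjusted p = 0.069) or b (0.99, adjusted p = 0.05) or MEKi with 4OHT clone c (0.87, adjusted p = 0.095). With PP1 the call was lost without PP1 clone b (0.97, adjusted p = 0.082) or PP1 with 4OHT clone a (0.97, adjusted p = 0.062) or c (0.93, adjusted p = 0.067).

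Of the 11 sterol genes 8 rose and 2 fell with 4OHT alone, against 25.7% and 26.3% of all genes. With either inhibitor 9 rose and 0 fell, against 7.65% and 7.03% of all genes with MEKi and 18.4% and 12.8% with PP1. Cyp51 (chr5:4081145-4104746, minus strand), the lanosterol demethylase, was 69 and 75.5 CPM in DMSO and 156, 214 and 195 CPM with 4OHT, a 2.6-fold rise with no overlap (1.38 ± 0.12, adjusted p = 7.8e-10). The MEKi libraries gave 55, 60.5 and 64.2 CPM without and 82.3, 90.7 and 97.1 CPM with 4OHT (0.59 ± 0.10, adjusted p = 4.1e-04), and with PP1 62.5, 59.4 and 61.3 CPM without and 117, 144 and 136 CPM with 4OHT (1.12 ± 0.11, adjusted p = 5.1e-08). The groups stood apart in all 3 conditions, and the MEKi rise was the smallest. Akap9 overlaps Cyp51 on the opposite strand.

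Msmo1 (chr8:64718139-64733792, minus strand), the sterol C4-methyl oxidase whose printed stretch holds the third core, was 74.9 and 75.3 CPM in DMSO and 155, 180 and 184 CPM with 4OHT (1.20 ± 0.12, adjusted p = 1.4e-08). Under MEKi it was 69, 70.8 and 64.8 CPM without and 125, 112 and 145 CPM with 4OHT (0.90 ± 0.11, adjusted p = 3.1e-06), and with PP1 74.5, 64.9 and 72.5 CPM without and 121, 149 and 165 CPM with 4OHT (1.04 ± 0.11, adjusted p = 2.5e-07). Every 4OHT library was above every library of its control. Its 4OHT effect did not differ between conditions by the interaction tests (adjusted p = 0.13, 0.49 and 0.64), with differences of -0.30 ± 0.16, -0.16 ± 0.16 and 0.14 ± 0.15.

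Fdft1 (chr14:63145150-63179578, minus strand), squalene synthase, was 121 and 121 CPM in DMSO and 194, 245 and 255 CPM with 4OHT (0.93 ± 0.10, adjusted p = 3.2e-08). It went from 111, 111 and 127 to 191, 178 and 212 CPM with MEKi (0.73 ± 0.09, adjusted p = 3.2e-06) and from 104, 100 and 105 to 221, 228 and 229 CPM with PP1 (1.14 ± 0.09, adjusted p = 2.6e-09). In none of the 3 conditions did the groups overlap. Ctsb overlaps Fdft1 on the opposite strand.

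Sc5d (chr9:42251595-42264256, minus strand), lathosterol oxidase, was 27 and 26.1 CPM in DMSO and 41, 60.5 and 70.9 CPM with 4OHT (1.11 ± 0.17, adjusted p = 1.7e-05), 16.9, 23.1 and 25.3 CPM with MEKi and 34.1, 32.1 and 36.3 CPM with MEKi and 4OHT (0.65 ± 0.16, adjusted p = 0.0098). In PP1 it was 25, 28.5 and 27.7 CPM without and 39.3, 41.9 and 45.9 CPM with 4OHT (0.63 ± 0.16, adjusted p = 0.005). The 4OHT libraries were higher without overlap in each condition, and clone a was the lowest of them with 4OHT alone. The call with MEKi was lost without MEKi clone a (0.49, adjusted p = 0.063).

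Tm7sf2 (chr19:6062821-6068373, minus strand), a sterol C14-reductase, was called in opposite directions. It was 9.38 and 9.82 CPM in DMSO and 6.06, 6.55 and 7.15 CPM with 4OHT, lower in each 4OHT library (-0.54 ± 0.18, adjusted p = 0.016). Under MEKi it was 7.19, 9.16 and 8.73 CPM without and 13.5, 11.8 and 13.2 CPM with 4OHT, higher in each (0.62 ± 0.16, adjusted p = 0.01), while with PP1 it was 12.5, 9.56 and 9.43 and 9.1, 10.6 and 11.9 CPM, which overlap (0.03 ± 0.16, adjusted p = 0.9). The fall was not called without DMSO clone b (-0.55, adjusted p = 0.072), DMSO clone c (-0.47, adjusted p = 0.12) or 4OHT clone a (-0.45, adjusted p = 0.078). The rise with MEKi was not called without MEKi clone a (0.53, adjusted p = 0.062) or MEKi with 4OHT clone a (0.57, adjusted p = 0.052). Vps51 overlaps Tm7sf2 on the same strand.

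Lss, which cyclises squalene epoxide to lanosterol, rose by 0.71 ± 0.15 with 4OHT alone, 0.58 ± 0.13 with MEKi and 1.32 ± 0.14 with PP1, where it was the member with the largest rise (4930483K19Rik overlaps it on the opposite strand). Nsdhl, a sterol dehydrogenase, rose by 0.45 ± 0.12, 0.84 ± 0.11 and 1.18 ± 0.11, and Hsd17b7, a 3-ketosteroid reductase, by 0.63 ± 0.16, 0.51 ± 0.14 and 0.90 ± 0.15. Under library totals these 3 genes were not called with 4OHT alone (0.40, 0.15 and 0.32). Hsd17b7 lost its call with MEKi without MEKi clone a (0.41, adjusted p = 0.11) or MEKi with 4OHT clone c (0.45, adjusted p = 0.077). Sqle, squalene epoxidase, rose by 0.45 ± 0.14 with 4OHT alone and 0.56 ± 0.13 with PP1, and had 0.23 ± 0.12 with MEKi, which was not called. Its call with 4OHT alone was lost without DMSO clone b (0.34, adjusted p = 0.13), without the 3 libraries richest in high-count loci (0.35, adjusted p = 0.055) and under library totals (0.14).

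Dhcr7, the last reductase of one route to cholesterol, had 0.22 ± 0.16 with 4OHT alone (not called) and rose by 0.58 ± 0.14 with MEKi and 0.76 ± 0.14 with PP1. It was not called with MEKi without MEKi with 4OHT clone c (0.43, adjusted p = 0.07), and was called with 4OHT alone without 4OHT clone a (0.42, adjusted p = 0.024). Ebp, the sterol isomerase, was the other member of the branch called lower with 4OHT alone (-0.68 ± 0.21, adjusted p = 0.0095), and had -0.14 ± 0.20 with MEKi and 0.20 ± 0.19 with PP1, neither called. It held 960 counts over all libraries, and its fall was not called without DMSO clone b (-0.62, adjusted p = 0.068) or 4OHT clone c (-0.55, adjusted p = 0.054).

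**Figure D2:**
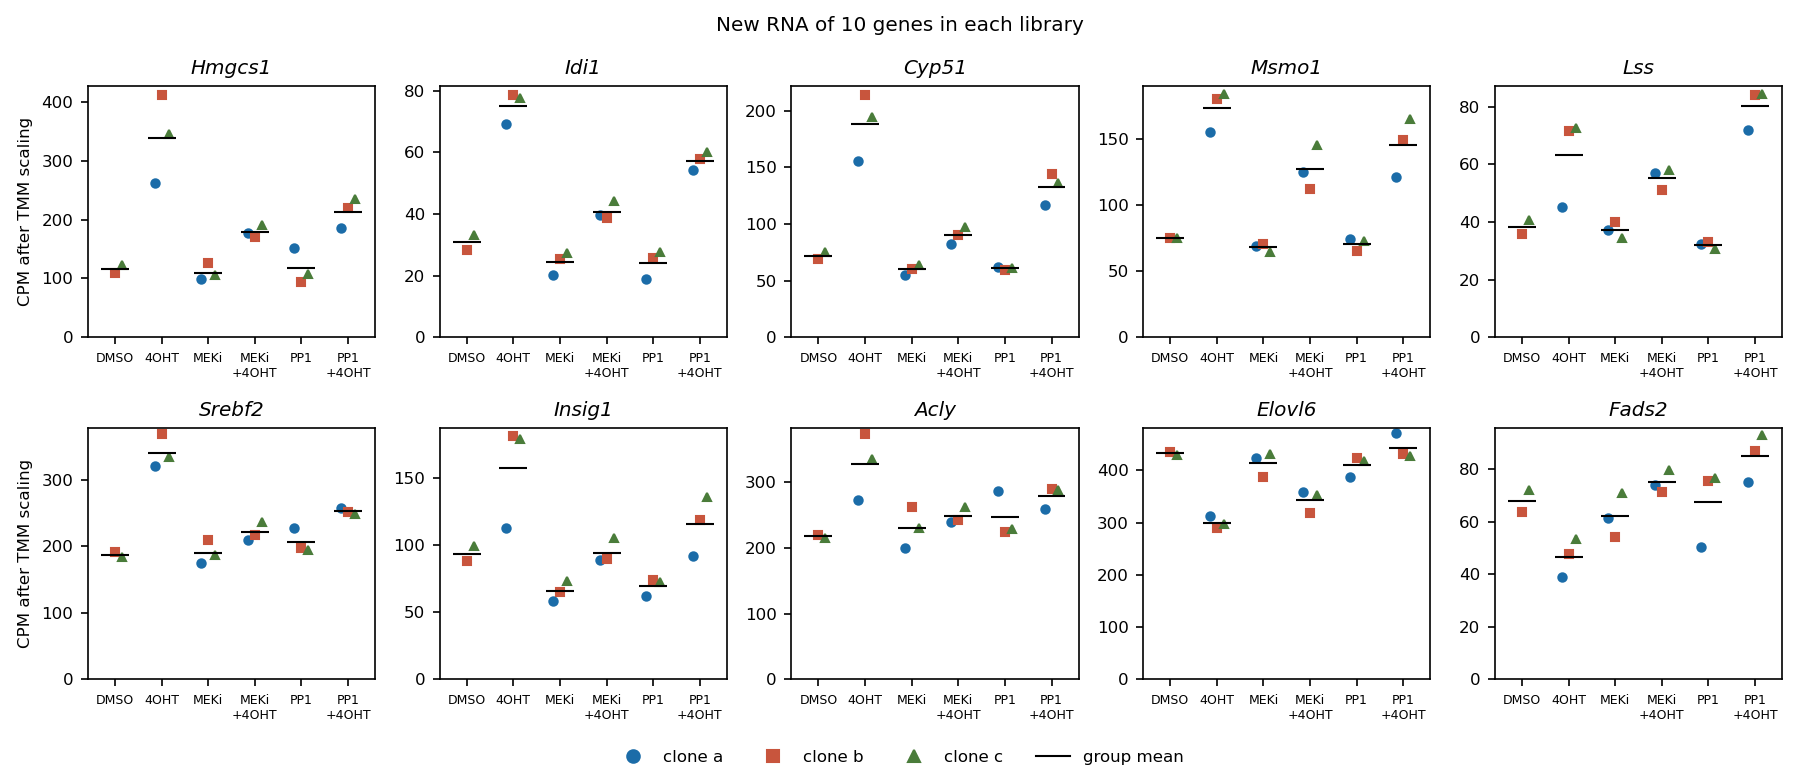
Level in each library (CPM after TMM scaling, linear axes from 0) of 10 members in the 6 groups, with symbols for the clones and lines for group means. The 5 cholesterol genes are higher in the 4OHT libraries of each condition, Srebf2 is highest with 4OHT alone (320 to 368 CPM), and Elovl6 is lowest there (289 to 312 CPM).

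Among the fatty acid genes, Elovl6, Fads1 and Fads2 fell with 4OHT alone while Acly, Scd1 and Scd2 rose. Elovl6 (chr3:129532355-129638495, plus strand), which elongates palmitate to stearate, was 435 and 430 CPM in DMSO and 312, 289 and 298 CPM with 4OHT, a fall in each 4OHT library (-0.53 ± 0.07, adjusted p = 2.0e-06). With MEKi it was 423, 388 and 432 CPM without and 358, 319 and 353 CPM with 4OHT, a smaller fall without overlap (-0.27 ± 0.07, adjusted p = 0.0069). With PP1 it was 387, 424 and 418 CPM and 472, 432 and 427 CPM, where all 4OHT libraries were higher and the test was not passed (0.11 ± 0.07, adjusted p = 0.2). The fall with MEKi was not called under library totals (-0.11, adjusted p = 0.73). Gm35986 overlaps Elovl6 on the opposite strand.

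Fads1 (chr19:10182888-10196877, plus strand), the delta-5 desaturase, was 24.5 and 28.3 CPM in DMSO and 12.4, 20.7 and 13.4 CPM with 4OHT, a fall with no overlap (-0.81 ± 0.17, adjusted p = 2.7e-04). It was 20.3, 27 and 23.3 and 23.9, 22.1 and 25.9 CPM without and with 4OHT in MEKi (0.03 ± 0.15, adjusted p = 0.92) and 28.6, 30.9 and 32.3 and 24.3, 28.1 and 30.6 CPM in PP1 (-0.16 ± 0.15, adjusted p = 0.43), where the groups overlapped. Fads2 (chr19:10062765-10101746, minus strand), the delta-6 desaturase next to it, was 63.8 and 72.2 CPM in DMSO and 39.1, 47.7 and 53.3 CPM with 4OHT (-0.54 ± 0.16, adjusted p = 0.0061). This fall did not pass without DMSO clone c (-0.41, adjusted p = 0.078). With MEKi Fads2 was 61.4, 54.1 and 71 CPM without and 74.2, 71.3 and 79.9 CPM with 4OHT (0.26 ± 0.14, adjusted p = 0.22), and with PP1 50.3, 75.6 and 76.6 and 75.1, 87.2 and 93.1 CPM (0.31 ± 0.14, adjusted p = 0.1). Neither change was called, although the MEKi groups did not overlap, and with the replicate block the rise with PP1 passed (0.32, adjusted p = 0.013).

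Acly (chr11:100476353-100528000, minus strand), ATP citrate lyase, which supplies cytosolic acetyl-CoA to both branches, was 220 and 215 CPM in DMSO and 273, 374 and 335 CPM with 4OHT, higher in each 4OHT library (0.59 ± 0.13, adjusted p = 5.7e-04). It was 200, 262 and 231 and 239, 242 and 263 CPM without and with 4OHT in MEKi (0.10 ± 0.11, adjusted p = 0.59) and 287, 225 and 229 and 260, 290 and 288 CPM in PP1 (0.18 ± 0.11, adjusted p = 0.22), and these groups overlapped. Scd1 and Scd2, stearoyl-CoA desaturases, had log2 fold changes of 0.56 ± 0.22 and 0.85 ± 0.29 with 4OHT alone (called higher, adjusted p = 0.04 and 0.026). With PP1 they had 0.74 ± 0.20 (called higher) and 0.44 ± 0.26 (not called), and with MEKi 0.25 ± 0.20 and 0.53 ± 0.26 (not called). Without 4OHT clone b the values with 4OHT alone were 0.37 (Scd1, adjusted p = 0.17) and 0.74 (Scd2, adjusted p = 0.072), and without 4OHT clone c 0.60 (adjusted p = 0.071) and 0.76 (adjusted p = 0.067). Without DMSO clone b they were 0.56 (adjusted p = 0.16) and 0.68 (adjusted p = 0.17). Scd1 was also lost without DMSO clone c (0.62, adjusted p = 0.11), and with PP1 without PP1 clone b (0.61, adjusted p = 0.059). Under library totals Acly, Scd1 and Scd2 were not called with 4OHT alone (0.27, 0.24 and 0.53), and Scd2 was called higher with MEKi (0.70, adjusted p = 0.03) and with PP1 (0.58, adjusted p = 0.041).

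Fasn and Acaca, the fatty acid synthase and the acetyl-CoA carboxylase that make palmitate, were not called in any of the 3 conditions. Fasn had log2 fold changes of 0.62 ± 0.35, -0.00 ± 0.31 and -0.12 ± 0.31, and Acaca of 0.01 ± 0.10, -0.08 ± 0.09 and 0.15 ± 0.10. The highest Fasn level in the 4OHT group (258 CPM, clone b), in the MEKi group (216 CPM, clone b) and in the PP1 group (290 CPM, clone a) came from the 3 libraries with the largest share in high-count loci. Without those 3 libraries, an alternative chosen after seeing the data, Fasn was called higher with 4OHT alone (0.38, adjusted p = 0.041). Acly was called higher with PP1 when they were left out (0.28, adjusted p = 0.011). Acaca, which Gm11437 overlaps on the opposite strand, was called higher with PP1 without PP1 clone b (0.28, adjusted p = 0.04). Acss2, acetyl-CoA synthetase, had 0.29 ± 0.15, -0.40 ± 0.14 and 0.28 ± 0.14, none called. Ggt7, Gss and Acss2os on the opposite strand and Mipep-ps and Gm20637 on the same strand overlap Acss2, so its values are uncertain. The fall of Acss2 with MEKi passed with the replicate block (-0.40, adjusted p = 0.038), by DESeq2 (-0.42, adjusted p = 0.046) and by limma-voom (-0.41, adjusted p = 0.047).

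The branches were also followed library by library, as the median over a branch of each gene's log2 level relative to its DMSO mean. For the 17 cholesterol genes it was 0.24, 0.90 and 0.72 with 4OHT, against -0.03 and 0.03 in DMSO. It was -0.39, -0.10 and -0.13 with MEKi and 0.37, 0.33 and 0.53 with MEKi and 4OHT, and -0.09, -0.22 and -0.15 with PP1 and 0.67, 0.68 and 0.77 with PP1 and 4OHT. Each condition's 4OHT libraries were therefore above its controls, and clone a was the lowest of the 4OHT libraries without inhibitor. For the 9 fatty acid genes it was 0.13, 0.45 and 0.27 with 4OHT, -0.12, -0.09 and -0.00 with MEKi, and -0.11, 0.05 and 0.23 with MEKi and 4OHT. With PP1 it was 0.11, 0.03 and 0.07, and with PP1 and 4OHT 0.13, 0.36 and 0.41. In the MEKi condition the fatty acid medians with and without 4OHT overlapped. The SREBP machinery had 0.17, 0.70 and 0.52 with 4OHT, -0.38, -0.17 and -0.03 with MEKi and 0.08, 0.07 and 0.18 with MEKi and 4OHT. In PP1 its medians were -0.13, -0.18 and -0.16, and in PP1 with 4OHT 0.20, 0.28 and 0.32.

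**Figure D3:**
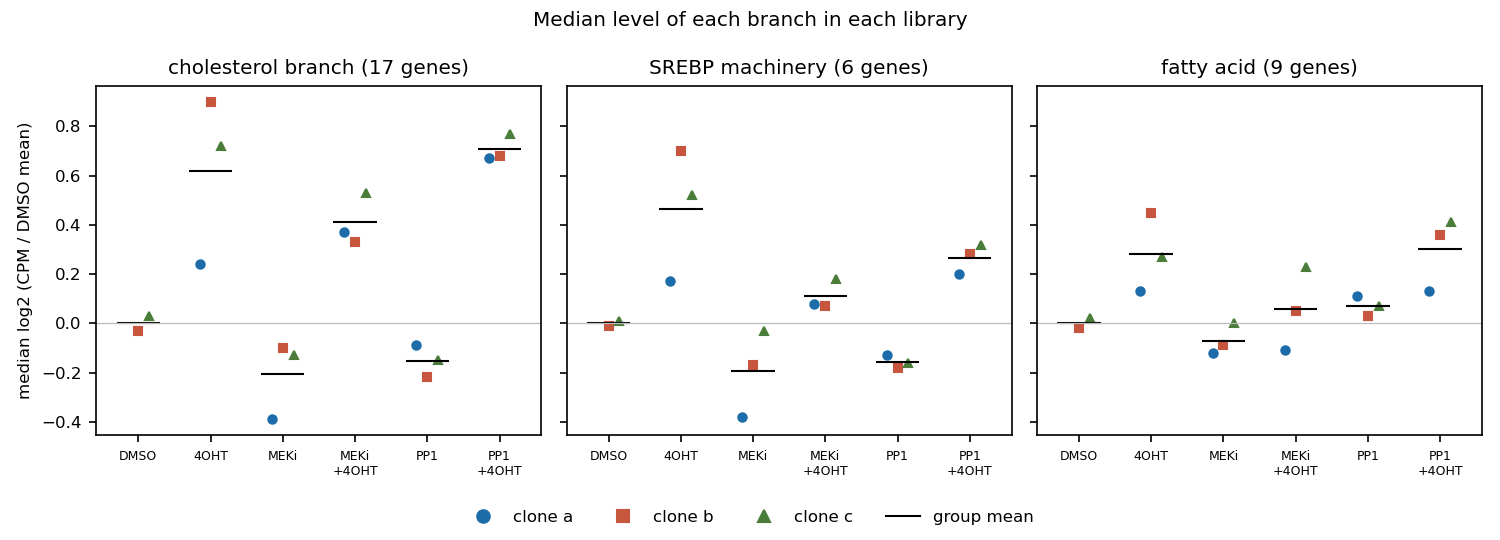
Median over each branch of log2 (CPM / DMSO mean) in each library, with symbols for clones. The cholesterol medians with 4OHT are 0.24 to 0.90 without inhibitor, 0.33 to 0.53 with MEKi and 0.67 to 0.77 with PP1, each above its controls, while the fatty acid medians with MEKi overlap.

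The differences between 4OHT effects were tested as interactions. With MEKi minus without inhibitor, 6 members were called higher and 6 lower, shares near the 21.1% and 19.3% of all genes. This split depended on the scaling, with 11 higher and 0 lower under library totals and 3 higher and 6 lower with DESeq2 size factors. Among the cholesterol genes the rise was smaller with MEKi for Cyp51 (-0.79 ± 0.15, adjusted p = 2.2e-04), Hmgcs1 (-0.83 ± 0.27, adjusted p = 0.026) and Idi1 (-0.54 ± 0.18, adjusted p = 0.017), and the effect was more positive for Tm7sf2 (1.17 ± 0.24, adjusted p = 4.9e-04) and Mvk (0.55 ± 0.22, adjusted p = 0.048). For the other 12 cholesterol genes tested no difference was called, and their differences ran from -0.46 (Sc5d) to 0.54 (Ebp). In the fatty acid branch Fads1, Fads2 and Elovl6 had more positive effects with MEKi (0.84 ± 0.22, 0.81 ± 0.21 and 0.25 ± 0.10), while Acly (-0.48 ± 0.17) and Acss2 (-0.69 ± 0.20) had lower effects. Srebf1 was called higher (0.31 ± 0.12) and Srebf2 lower (-0.64 ± 0.12). With the replicate block Nsdhl (0.35, adjusted p = 0.046) and Sc5d (-0.52, adjusted p = 0.021) were called as well.

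With PP1 minus without inhibitor, 7 members were called higher and 1 lower, against 15.1% and 11.4% of all genes. Ebp (0.88 ± 0.29, adjusted p = 0.025), Nsdhl (0.73 ± 0.16, adjusted p = 0.002) and Lss (0.61 ± 0.20, adjusted p = 0.027) had more positive effects with PP1, and so had Fads2, Fads1, Elovl6 and Srebf1 (0.85 ± 0.21, 0.65 ± 0.22, 0.64 ± 0.10 and 0.38 ± 0.12). Srebf2 was called lower (-0.57 ± 0.12, adjusted p = 8.5e-04). DESeq2 called 6 higher and 3 lower for this difference, and 3 were lower by edgeR at an unadjusted p under 0.05. With PP1 minus with MEKi, 5 members were called higher and 0 lower, against 7.41% and 4.86% of all genes: Lss (0.74 ± 0.19, adjusted p = 0.012), Acss2 (0.68 ± 0.20, adjusted p = 0.022), Cyp51 (0.53 ± 0.15, adjusted p = 0.018), Fdft1 (0.40 ± 0.12, adjusted p = 0.034) and Elovl6 (0.39 ± 0.09, adjusted p = 0.0071). For that difference 1 member was lower at an unadjusted p under 0.05, and DESeq2 called 0 lower. The plot of differences between effects shows that none of the mevalonate genes was called for PP1 minus MEKi or PP1 minus no inhibitor. Under library totals 0 members were called for PP1 minus MEKi, and for PP1 minus no inhibitor 14 were higher and 0 lower. With the replicate block Sc5d for PP1 minus no inhibitor (-0.53, adjusted p = 0.026) and Idi1 for PP1 minus MEKi (0.48, adjusted p = 0.017) were called.

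**Figure D4:**
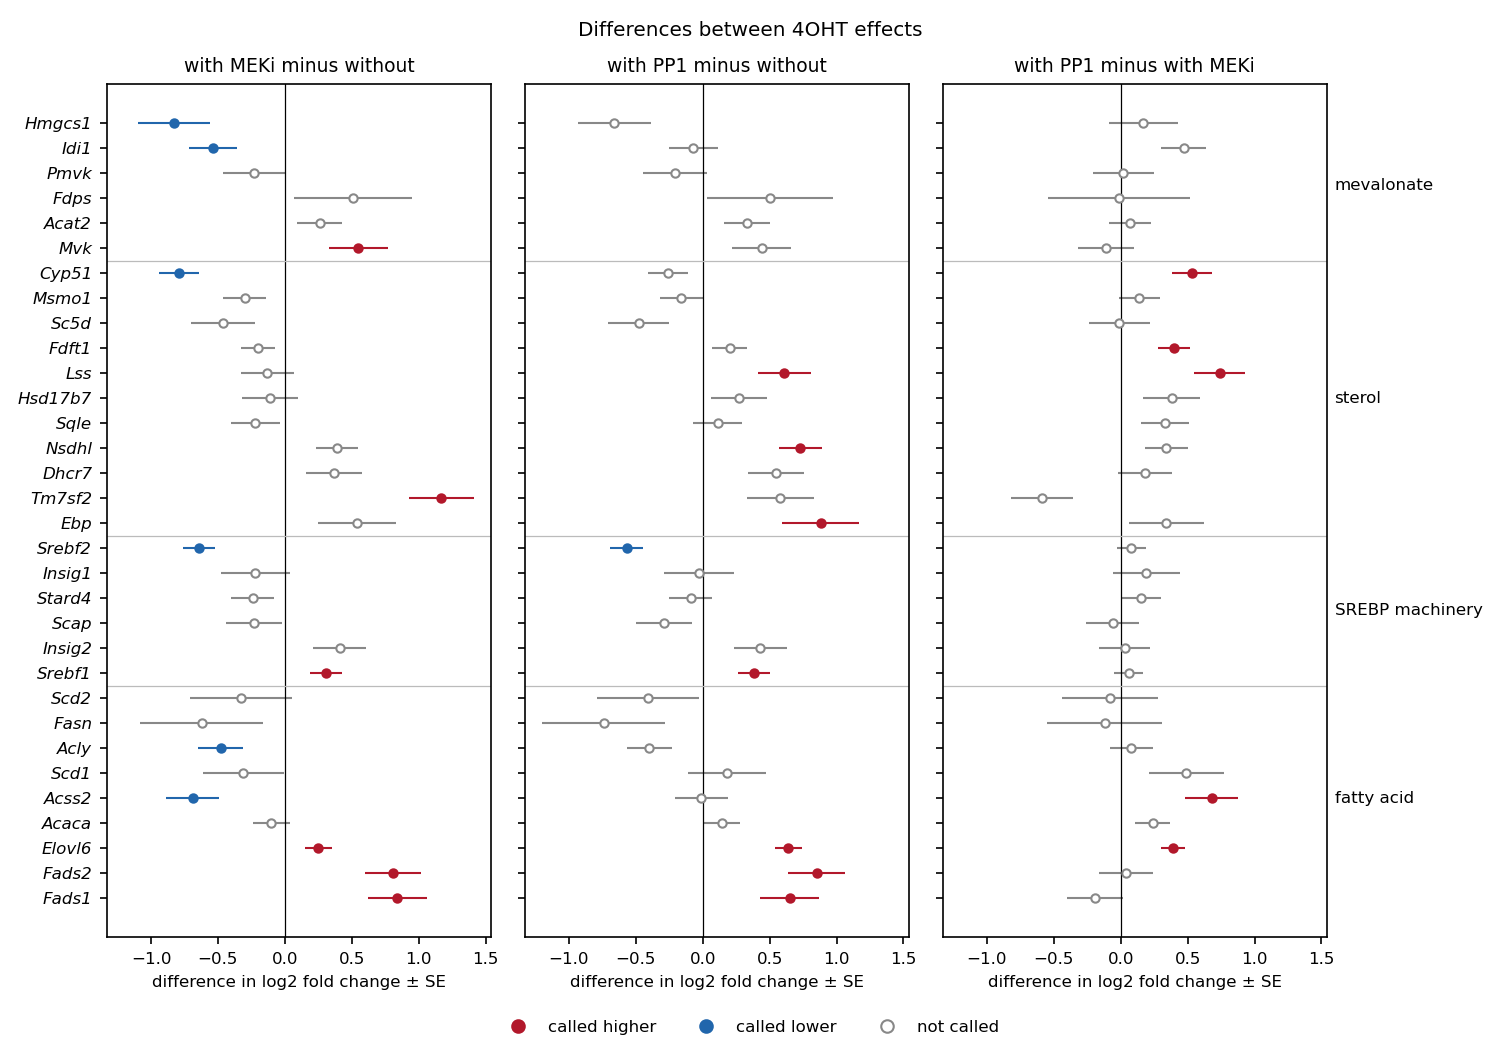
Difference ± SE between the log2 fold changes by 4OHT, with MEKi minus without, with PP1 minus without, and with PP1 minus with MEKi, for the 32 tested genes (filled symbols passed an adjusted p of 0.05). Srebf2 is lower with either inhibitor than without (-0.64 and -0.57), and Fads1, Fads2 and Elovl6 are higher.

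The inhibitors given without 4OHT gave no call among the members by edgeR. For MEKi against DMSO 0 of 32 members passed in either direction, against 0.0805% of all genes higher and 0.449% lower. At an unadjusted p under 0.05, 5 members were lower and 0 higher. The share of all genes at an unadjusted p was not counted in this or the next 2 comparisons. All 17 cholesterol genes had values below 0 (median -0.18), as had 7774 of all 14907 genes (median -0.01). The lowest members were Insig1 (-0.51 ± 0.19, adjusted p = 0.33), Stard4 (-0.48 ± 0.12, adjusted p = 0.072) and Nsdhl (-0.48 ± 0.13, adjusted p = 0.095). Stard4 was called lower by DESeq2 (-0.46, adjusted p = 0.046), with the replicate block (-0.46, adjusted p = 0.048) and without a filter on low counts (-0.47, adjusted p = 0.031), and limma-voom called 0. For PP1 against DMSO 0 members passed, against 0.0805% higher and 0.161% lower of all genes. There were 6 lower at an unadjusted p under 0.05 and 0 calls by DESeq2 or limma-voom. Of the 17 cholesterol genes 13 had values below 0 with PP1 (median -0.17), as had 8058 of all 14907 genes (median -0.02). For PP1 against MEKi 0 members passed, against 0.0738% higher and 0% lower, with 1 higher at an unadjusted p under 0.05 and 0 calls by DESeq2 or limma-voom. Both inhibitor groups were set against the same DMSO libraries.

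Among the 4OHT groups more members were called, and so were more of all genes. In MEKi with 4OHT against 4OHT, 6 members were higher and 13 lower, against 28.4% of all genes in each direction. The largest differences were Cyp51 (-1.06 ± 0.10) and Hmgcs1 (-0.92 ± 0.18) among those lower and Tm7sf2 (0.96 ± 0.17) among those higher. For PP1 with 4OHT against 4OHT, 10 were higher and 7 lower, against 21.4% and 20.5% of all genes, with Fads2 (0.87 ± 0.14) highest and Hmgcs1 (-0.67 ± 0.18) lowest. These comparisons share the 4OHT libraries, and under library totals they had 9 higher and 4 lower, and 12 higher and 1 lower. In PP1 with 4OHT against MEKi with 4OHT, 11 members were higher and 0 lower, against 15.2% and 13% of all genes, and 0 were lower at an unadjusted p under 0.05. The higher ones were Idi1, Sqle, Lss, Cyp51, Nsdhl, Ebp and Dhcr7 of the cholesterol branch, Stard4, and Acss2, Scd1 and Elovl6 of the fatty acid branch, with log2 fold changes of 0.35 (Sqle and Stard4) to 0.75 (Scd1). Under library totals 1 member was called there, with the replicate block 15, and fitted to only these groups 16, all higher.

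Other genes of sterol and lipid metabolism, taken from lists of general knowledge, changed in both directions with 4OHT alone, and their counts are to be read against the shares of all genes: 25.7% higher and 26.3% lower with 4OHT alone, 7.65% and 7.03% with MEKi, and 18.4% and 12.8% with PP1. Of 13 tested genes for SREBP processing and sterol-regulated degradation, 4 rose and 2 fell with 4OHT alone, 0 changed with MEKi, and 2 rose with PP1. Sec24d, a subunit of the coat of vesicles that leave the endoplasmic reticulum, rose by 0.44 ± 0.09 with 4OHT alone, and Erlin2 had a log2 fold change of -0.48 ± 0.12 (edgeR adjusted p = 3.5e-04 and 0.002). Of 12 genes on isoprenoid side branches, 5 rose and 2 fell with 4OHT alone (Coq2, of ubiquinone synthesis, fell by 1.47 ± 0.15 on the log2 scale), 0 changed with MEKi, and 2 rose and 1 fell with PP1. Of 13 genes of sterol efflux, storage and trafficking, 3 rose and 3 fell with 4OHT alone, 3 rose and 0 fell with MEKi, and 2 rose and 1 fell with PP1. With 4OHT alone the efflux counts lay close to the shares of all genes. Abcg1, a sterol exporter, fell by 2.55 ± 0.32 with 4OHT alone and by 1.53 ± 0.26 with PP1, Tmem97 rose by 0.53 ± 0.10 and 0.84 ± 0.10, and Npc1 and Npc2, which release lysosomal cholesterol, rose with MEKi (0.37 ± 0.08 and 0.53 ± 0.09).

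Of 17 genes of fatty acid activation, elongation and glycerolipid synthesis, 7 rose and 8 fell with 4OHT alone, 4 rose and 1 fell with MEKi, and 8 rose and 4 fell with PP1. Me1, malic enzyme, rose by 1.86 ± 0.10 and Acsl3, an acyl-CoA synthetase, by 1.44 ± 0.11 with 4OHT alone, while Pnpla3 fell by 2.43 ± 0.22. Pnpla3 rose by 0.77 ± 0.16 with 4OHT in the presence of MEKi. Of 12 genes of fatty acid oxidation, 3 rose and 4 fell with 4OHT alone, 3 rose and 0 fell with MEKi, and 1 rose and 2 fell with PP1. For oxidation the counts with 4OHT alone were close to the shares of all genes. Cpt1a, which admits fatty acids to mitochondria, fell by 2.03 ± 0.13 with 4OHT alone and by 0.64 ± 0.11 with PP1, and rose by 0.42 ± 0.10 with MEKi (edgeR adjusted p = 3.9e-12, 9.1e-05 and 0.0075).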

How the data were processed

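The authors deposited whole-number counts per gene symbol with no normalization, 1 column per library, and all 17 columns were used. STAR, featureCounts and mm10 are named in the submitters' processing notes. Their versions, the annotation, the strand setting and how multi-mapped reads were handled are not given there. The analysis used edgeR 4.0.16 under R 4.3.3. Genes were filtered with filterByExpr (14907 remained), scaled by TMM and fitted together over 17 libraries in a robust quasi-likelihood model with a coefficient for each group (11 residual degrees of freedom, common biological coefficient of variation 0.0977). P-values were adjusted by Benjamini-Hochberg over all genes of a comparison. The SE is the absolute log2 fold change over the square root of the F statistic. Counts bear counting error that grows below a few CPM, and 3 counts set the floor quoted.

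The 33 members and the lists of other genes were chosen with earlier results of these data known. Per-library values are given for 5 regulators, for the 4 members of each of 3 branches with the smallest adjusted p in 4OHT against DMSO, and for any member called in opposite directions. Up to 4 called genes per related list and comparison could be named. A gene that this rule would name is not reported here. Positions are from GENCODE M21 (mm10), matched by symbol, and promoter windows from RefSeq (GRCm38.p6). The replicates are clones of 1 cell line, and the p-values measure the spread between them.

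Clone letters pair the libraries, since the labels name the same clone in each group. Deviations from group means had a mean correlation of 0.09 for 40 pairs of the same clone and -0.04 for 80 pairs of different clones. Alternatives were DESeq2 1.42.0 and its size factors, library totals, leaving out 14 high-count loci, other filters, limma-voom (limma 3.58.1), clone as a replicate block, only the groups compared, a 1.5-fold minimum, and each library left out in turn. Leaving out together the 3 libraries with the largest share in high-count loci was added after seeing the data. The fits of the effects of 4OHT were also run on simulated counts with known changes, drawn from the means and dispersions of the same model. Such counts cannot test the choice of scaling, and no result here rests on them.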

Additional observations from a re-analysis of the deposited data

Results flagged for a closer look

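The effect of 4OHT was tested for differences between conditions (edgeR interaction tests, adjusted p under 0.05). For MEKi minus without inhibitor 12 of 32 members were called, a share near that of all genes (21.1% higher and 19.3% lower). For PP1 minus without it was 8 (all genes 15.1% and 11.4%), and for PP1 minus MEKi 5 (all genes 7.41% and 4.86%). With MEKi minus without inhibitor the differences on the log2 scale were -0.83 (Hmgcs1), -0.54 (Idi1), -0.79 (Cyp51), -0.64 (Srebf2), -0.48 (Acly) and -0.69 (Acss2) among those lower. Those higher were 0.55 (Mvk), 1.17 (Tm7sf2), 0.31 (Srebf1), 0.25 (Elovl6), 0.84 (Fads1) and 0.81 (Fads2). Tm7sf2 is the member whose libraries moved one way without inhibitor and the other way with MEKi, with called changes in both.

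With PP1 minus without inhibitor the differences were 0.61 (Lss), 0.73 (Nsdhl), 0.88 (Ebp), 0.38 (Srebf1), 0.64 (Elovl6), 0.65 (Fads1), 0.85 (Fads2) and -0.57 (Srebf2). With PP1 minus with MEKi they were 0.40 (Fdft1), 0.74 (Lss), 0.53 (Cyp51), 0.68 (Acss2) and 0.39 (Elovl6). Srebf2 was lower and Srebf1, Elovl6, Fads1 and Fads2 were higher against the condition without inhibitor with both MEKi and PP1, and these 2 tests share the DMSO and 4OHT libraries.

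Of these 25 calls, 12 passed in every fit that left out 1 library: Cyp51, Tm7sf2, Srebf2, Acss2, Fads1 and Fads2 with MEKi minus without, Nsdhl, Srebf2, Elovl6 and Fads2 with PP1 minus without, and Lss and Elovl6 with PP1 minus with MEKi. Of the fits that left out 1 library, only that without DMSO clone b lost Idi1 with MEKi (-0.47, adjusted p = 0.063). Cyp51 with PP1 minus with MEKi was lost without MEKi clone c (0.46, adjusted p = 0.068), MEKi with 4OHT clone a (0.44, adjusted p = 0.074) or PP1 with 4OHT clone b (0.43, adjusted p = 0.079). Acss2 was lost without MEKi clone c (0.55, adjusted p = 0.08), MEKi with 4OHT clone a (0.62, adjusted p = 0.058) or PP1 with 4OHT clone c (0.65, adjusted p = 0.052). Srebf1 with PP1 was lost without DMSO clone c (0.25, adjusted p = 0.18), 4OHT clone a (0.26, adjusted p = 0.098), 4OHT clone c (0.30, adjusted p = 0.07) or PP1 with 4OHT clone b (0.29, adjusted p = 0.082). The other 9 calls were lost in 5 to 9 of the 11 or 12 such fits. With MEKi minus without these were Elovl6 and Mvk (9 of 11 each, with adjusted p up to 0.16 and 0.18), Srebf1 (8 of 11, up to 0.22), and Hmgcs1 and Acly (7 of 11 each, up to 0.11 and 0.086). With PP1 minus without they were Fads1 (8 of 11, up to 0.21), Lss (6 of 11, up to 0.2) and Ebp (5 of 11, up to 0.097), and with PP1 minus with MEKi Fdft1 (8 of 12, up to 0.11). All these fits used TMM. Under library totals 0 members were called lower for either inhibitor minus without, and 0 were called for PP1 minus with MEKi. Cyp51 and Acss2 with MEKi minus without, Srebf2 with either inhibitor, and Lss and Elovl6 with PP1 minus with MEKi were thus lost under that scaling.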

How the results depend on the processing

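Library totals as the only scaling gave 14 called members for the 4OHT effect with PP1 minus without inhibitor (8 by TMM), 0 for PP1 minus MEKi (5) and 1 for PP1 with 4OHT against MEKi with 4OHT (11). With library totals that leave out the 14 high-count loci these counts were 14, 3 and 7. A 1.5-fold minimum left 10 of 18 calls for MEKi with 4OHT against MEKi, 7 of 12 and 2 of 5 for the differences MEKi minus none and PP1 minus MEKi, 11 of 19 for MEKi with 4OHT against 4OHT, 7 of 17 for PP1 with 4OHT against 4OHT and 1 of 11 for PP1 with 4OHT against MEKi with 4OHT. MEKi against DMSO had 1 call with no filter, with DESeq2 and with the replicate block, and 0 otherwise.

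With the clone as a replicate block, 24, 21 and 22 members were called for 4OHT alone, with MEKi and with PP1 (22, 18 and 21 without it), and no call was lost.

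Leaving out 1 library at a time gave 17 to 26 calls for 4OHT against DMSO (fewest without DMSO clone b, most without 4OHT clone a), 11 to 18 with MEKi (fewest without MEKi clone a) and 17 to 20 with PP1. It gave 6 to 15, 4 to 10 and 2 to 6 for the differences MEKi minus none, PP1 minus none and PP1 minus MEKi. For MEKi with 4OHT and PP1 with 4OHT against 4OHT it gave 17 to 22 and 13 to 17, for PP1 with 4OHT against MEKi with 4OHT 6 to 11, and 0 for the inhibitors without 4OHT.

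Medians that changed sign under library totals were the fatty acid branch with 4OHT alone (-0.01), and for MEKi minus none the cholesterol branch (0.35), SREBP machinery (0.26) and fatty acid branch (0.18), and for PP1 minus none the SREBP machinery (0.37). Leaving out the high-count loci as well, the cholesterol branch (0.15) and SREBP machinery (0.06) for MEKi minus none, the SREBP machinery for PP1 minus none (0.10) and PP1 minus MEKi (-0.06), and the fatty acid branch for PP1 minus MEKi (-0.05) changed sign. When 1 library was left out, the fatty acid median for PP1 minus none ranged from -0.06 (without DMSO clone b; -0.05 without 4OHT clone a) to 0.11, and that with MEKi from -0.03 (without MEKi with 4OHT clone c) to 0.17. Without the 3 libraries with the largest share in high-count loci the SREBP machinery for PP1 minus none was 0.01. Single genes were listed as changing sign only where they were called by TMM. Related genes were followed only for the effects of 4OHT and their differences. Under library totals the genes so listed were Nus1 with 4OHT alone (-0.01), Acly for MEKi minus none (0.01) and Fdft1 in MEKi with 4OHT against 4OHT (0.10, and 0.05 without the loci). Genes that were not called are not in this list, and the medians above show that some of them changed sign as well. The cause was not tested.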
